A study of Homo sapiens with 12 samples.

Results

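Peaks recovered with the even probes against the long non-coding RNA SLEAR were compared with peaks recovered with lacZ probes. The comparison rests on 6 peak lists out of the 9 at hand, namely the samples titled even and lacZ, 3 of each, on chromosomes 1 to 22 and X. The cells were Jurkat, a long-established line of human leukaemic T lymphocytes, made to express SLEAR stably, and this holds for the lacZ controls too. By their labels the even and lacZ groups differed only in the probes, which does not show that all else was alike. The odd lists were not used. Together the 6 lists merged into 231901 regions, of which 66526 had a peak in every even list and in no lacZ list.

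The assay, ChIRP-seq (chromatin isolation by RNA purification), fixes RNA to the chromatin it touches and captures the RNA with biotinylated DNA oligonucleotides. The DNA that comes down with it is then sequenced. Long non-coding RNAs can act on chromatin near the gene they are made from or at distant sites, and the assay is used to find such sites. The even set is one of a pair of non-overlapping oligonucleotide sets along the RNA, which guards against capture that only one set gives. Probes to lacZ, a bacterial gene, show what the oligonucleotides, beads and wash steps recover without the target.

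Peaks were more numerous with even than with lacZ probes in most pairs of libraries and covered more of the genome in all pairs, while peak length and height overlapped. On the 23 chromosomes the even lists held 94119, 90179 and 124191 peaks in replicates 1, 2 and 3. The lacZ lists held 46560, 90804 and 26460. The groups overlapped, because lacZ replicate 2 exceeded even replicate 2, and the even list was the longer in 8 of 9 pairs. Even lists averaged 102830 ± 18604 peaks and lacZ lists 54608 ± 32918 (SD, n = 3), and the geometric mean was 2.11-fold higher with even probes. The log2 difference of 1.08 gave an exact permutation p = 0.2, two-sided. With 3 libraries against 3 this test cannot go below 0.1, and over the 4 list measures the Benjamini-Hochberg adjusted value was 0.4.

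Covered length separated the groups. Peaks covered 44.0, 40.6 and 54.0 Mb in the even lists and 21.8, 39.3 and 12.5 Mb in the lacZ lists, so every even list lay above every lacZ list. The means were 46.2 ± 6.98 and 24.6 ± 13.6 Mb (SD, n = 3), a log2 difference of 1.06. The exact permutation p was 0.1, the smallest possible, and 0.4 after adjustment over the 4 measures. The gap between the closest libraries, even replicate 2 and lacZ replicate 2, was small beside the spread within the lacZ group.

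Median peak length did not separate the groups. The median peak measured 409, 400 and 366 bases in the even lists and 420, 369 and 450 bases in the lacZ lists. The log2 difference of -0.07 was within the spread of the libraries (exact permutation p = 0.4, adjusted 0.5). In both groups the library with the most peaks had the shortest median. Peaks over 1000 bases made up 1.06%, 0.844% and 0.912% of the even lists and 0.694%, 0.773% and 0.465% of the lacZ lists, so that in this share every even list lay above every lacZ list.

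Summit pileup, the number of fragments that cover the highest point of a peak, overlapped too. Its median was 30, 32 and 20 fragments in the even lists and 24, 25 and 22 in the lacZ lists. The log2 difference was 0.18 (exact permutation p = 0.5, adjusted 0.5). Pileup is not scaled to depth, and how many reads each list rests on is unknown. As a rough guide to depth, the lowest background that pileup and fold imply in a list was divided by the length of the list's shortest peak. This gave 5.06, 5.92 and 3.06 fragments per kb in the even lists and 3.96, 3.64 and 2.16 in the lacZ lists. Median pileup was divided by the lowest background itself, not by its value per kb. The log2 difference in median pileup then turned to -0.25 (exact permutation p = 0.3), so its direction follows the scale. The guide per kb was lowest in replicate 3 of either group, which was the longest even list and the shortest lacZ list. The part of depth in the peak numbers was not tested. Nothing in the labels says that the replicates came from separate cultures, so these p-values measure the spread between libraries, which may be technical.

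**Figure D1:**
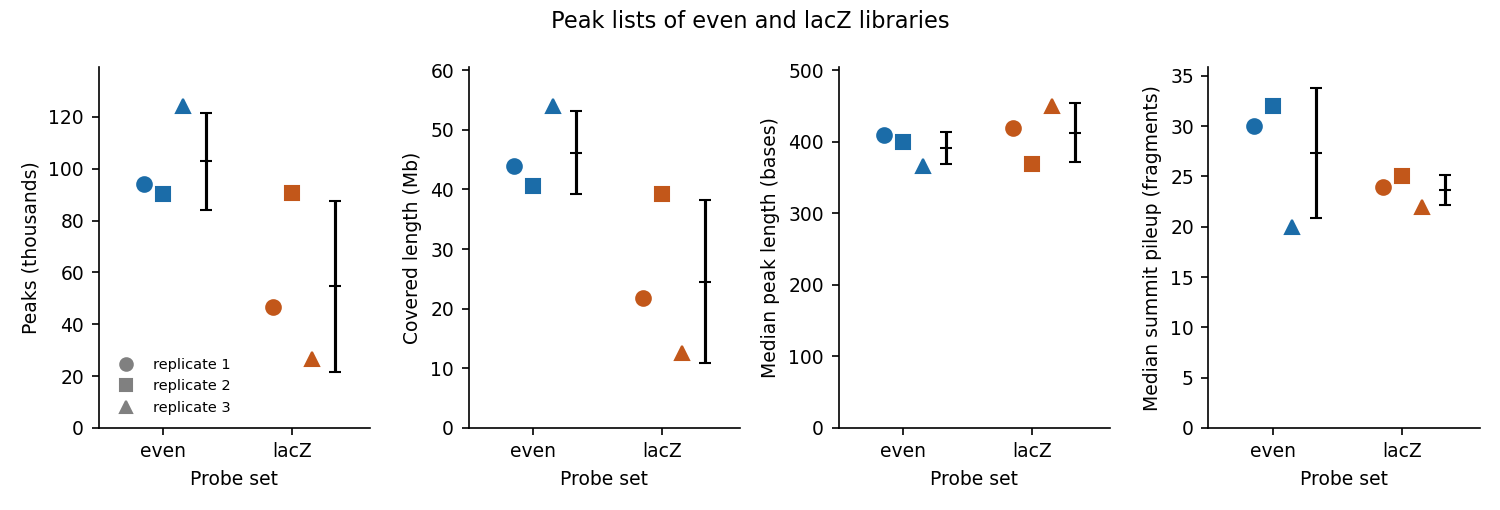
Each point is 1 library and each black mark the mean ± SD of 3 libraries, for peak number, covered length in Mb, median peak length in bases and median summit pileup in fragments. The even and lacZ points separate in covered length, where the lowest even list covered 40.6 Mb and the highest lacZ list 39.3 Mb, and overlap in the other 3 panels.

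Most regions belonged to one probe set alone. Of the 231901 merged regions, 66526 (28.7%) had a peak in 3 of 3 even and 0 of 3 lacZ lists, and are called even-only below. The reverse, 3 of 3 lacZ and 0 of 3 even lists, held for 22509 regions (9.71%), called lacZ-only. All 6 lists had a peak in 823 regions (0.355%), and at least 1 list of each set in 4969 (2.14%). The count in all 6 lists moved most with the settings, to 1434 without lacZ replicate 3, 1450 with merging over 500 bases, 136 where each list had to cover 50% of the region and 253 in the upper 50% of peaks by fold. Recurrent even regions were therefore seldom shared: of the regions with a peak in all 3 even lists, 1230 also had 1 lacZ list and 670 had 2. These counts moved with how many peaks were taken from each list. When each list was held to its 26460 strongest peaks by fold, the length of the shortest list, which also raises the lowest fold of the longer lists, even-only regions numbered 19244 and lacZ-only regions 18744. At equal length the counts of the sets were close, and the parts of length and of fold in this were not separated. Without lacZ replicate 3, the shortest list, 41277 regions were lacZ-only and 66544 even-only.

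**Figure D2:**
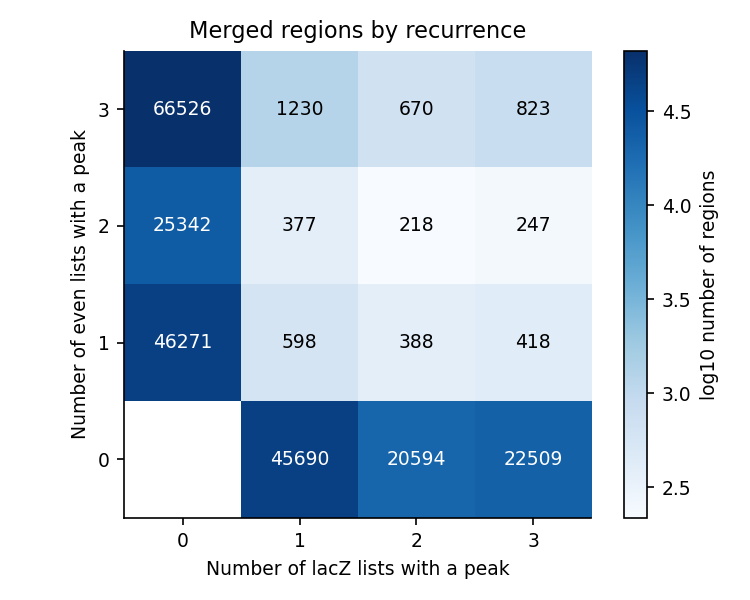
Number of merged regions by how many of the 3 even lists (vertical axis) and how many of the 3 lacZ lists (horizontal axis) had a peak, with shading on a log10 scale. The counts of 66526, 25342 and 46271 along the left edge and of 45690, 20594 and 22509 along the bottom edge hold nearly all regions, and no inner field exceeds 1230.

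Regions that missed the even-only rule for want of an even list were shorter and weaker. In 25342 regions 2 even lists and no lacZ list had a peak, and in 46271 regions 1 even list alone. The median length was 594 bases for even-only regions, 334 with 2 even lists and 268 with 1. A region merged over more lists is longer by construction. The peaks inside, in even replicate 1, had a median of 504, 295 and 279 bases. How often a weak peak recurs also depends on the peak cutoff, and that part was not tested. In even replicate 1 the median summit pileup of these classes was 39, 18 and 14 fragments, in replicate 2 it was 41, 17 and 13, and in replicate 3 it was 35, 15 and 10. The same order held in each of the 3 even libraries. Even replicate 3, the longest list, supplied 30736 of the 46271 regions seen once. Even replicate 2 was the list most often missing from regions seen in 2 of 3, with 12076 of 25342. Regions with 3 even lists and 1 lacZ list, outside the rule on the other side, were longer and higher than even-only regions. Their median length was 750.5 bases, over 1 list more, and their median even pileup 49, 53 and 43 fragments in replicates 1, 2 and 3. The even peaks inside them differed less, with medians of 551, 533.5 and 577 bases against 504, 471 and 530 in even-only regions.

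The lacZ group behaved in a similar way but turned on a different library. Of 45690 regions with a single lacZ list and no even list, 42847 came from lacZ replicate 2. Of 20594 with 2 lacZ lists, 18759 lacked lacZ replicate 3. The shortest lacZ list was thus the one that most often kept a region out of the lacZ-only class, whose median length was 685 bases.

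The strongest peaks of either set were nearly all recurrent in that set and free of peaks of the other. Fold enrichment is the authors' own value for each peak and was ranked only within a list. Where folds of a region from several lists are set side by side below, each rests on the background of its own list. In the top 10% by fold, 94.9%, 94.6% and 95.1% lay in even-only regions in replicates 1, 2 and 3. In the lacZ lists 92.4%, 92.7% and 92.4% of the top 10% lay in lacZ-only regions. Over all lacZ peaks this share was 48.4%, 24.8% and 85.3%, and in the middle 10% by fold 35.7%, 3.67% and 91.2%. In lacZ replicate 3, the shortest list, the top 10% thus hardly differed from the middle. Over all even peaks the share in even-only regions was 70.8%, 74.0% and 53.8%. Of the 10% with the lowest fold in the even lists, 22.7%, 26.3% and 6.99% did. The weakest peaks of replicate 3, the longest list, were thus the least often recurrent. The share of even peaks in a region that any lacZ list also marked was higher among strong peaks than among weak ones, at 5.13%, 5.36% and 4.90% against 2.89%, 2.92% and 2.62%. Strong peaks were also longer, with medians of 781, 779 and 752 bases against 284, 263 and 257 bases, and a longer peak has more bases with which to meet another. The part of length in this difference was not tested. Over all peaks the share was 3.73%, 3.75% and 3.57% in the even lists. Seen from the control, 5.93%, 5.36% and 6.16% of peaks in lacZ replicates 1, 2 and 3 lay in a region with an even peak.

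Even-only regions were ranked by the percentile of their fold, averaged over the even lists, and the first 20 lay on 12 chromosomes and were compact. They measured 918 to 1550 bases with a median of 956, and their summits in the 3 even lists lay 2 to 77 bases apart, with a median of 29 bases. Summit pileup ran from 368 to 2205 fragments and fold from 181 to 559. Pileup was highest in even replicate 2 in all 20. It was lowest in replicate 3 in 19 of them, and tied between replicates 1 and 3 in the other. The rough guide to depth orders the even libraries in the same way, but not the lacZ libraries by their strongest regions, given below. No lacZ list had a peak in these regions by the rule. The nearest merged region with a lacZ peak lay 20 to 62004 bases away, with a median of 10927 bases. Positions here and below are on build hg19.

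The first in rank was chr10:121348627-121349596, with a pileup of 679, 1173 and 585 fragments in even replicates 1, 2 and 3 and a fold of 302, 450 and 268. It ranked 6, 3 and 10 by fold in the 3 lists. All 3 libraries thus placed it among their 10 strongest peaks. The second, chr5:79628441-79629395, had 907, 1151 and 570 fragments and its summits lay 13 bases apart. The third, chr12:30404388-30405344, had 664, 763 and 506 fragments, and its fold of 296, 327 and 300 varied least among the first 3.

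The fourth region stood apart by its surroundings. It lay near the start of chromosome 4 at chr4:66675-67621, with 1514, 2205 and 1094 fragments. A merged region with a lacZ peak began or ended 20 bases from it. With a wider merging distance the fourth region would no longer count as even-only. Chromosome 7 held 4 of the 20. At chr7:19452088-19453016 the pileup was 512, 779 and 483 fragments, and at chr7:90112328-90113576 it was 596, 755 and 420. The region chr7:1900700-1901967 reached 1195, 1562 and 606 fragments, and chr7:54494000-54494941 reached 504, 748 and 434.

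On chromosome 2 there were 3 regions. The sixth in rank, chr2:214067294-214068264, had a pileup of 585, 1044 and 585 fragments and was the second strongest peak of even replicate 3 by fold. Those at chr2:152644058-152645001 and chr2:147647890-147648823 had 437, 797 and 432 and 515, 689 and 396 fragments. Chromosome 12 held another 2, chr12:75887085-75888062 with 698, 1026 and 537 fragments and chr12:27888441-27889392 with 522, 759 and 397. The last was the farthest of the 20 from a merged region with a lacZ peak, at 62004 bases.

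Chromosome 8 gave the region whose fold varied most between libraries among the 20, with a mean of 365 ± 183 (SD, n = 3). The region chr8:102063895-102065444, twelfth in rank and the longest of the 20, had 1685, 2112 and 1114 fragments. By fold it ranked 5 and 2 in replicates 1 and 2 but 97 in replicate 3, although its summits lay only 2 bases apart. On chromosome 10 a second region, chr10:35155443-35156360, ranked 96, 5 and 6. The remaining 5 were chr3:18930358-18931331, chr13:66614622-66615563, chr6:156957827-156958783, chr1:185366035-185367009 and chr11:100618301-100619246, with pileups from 368 to 779 fragments.

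**Figure D3:**
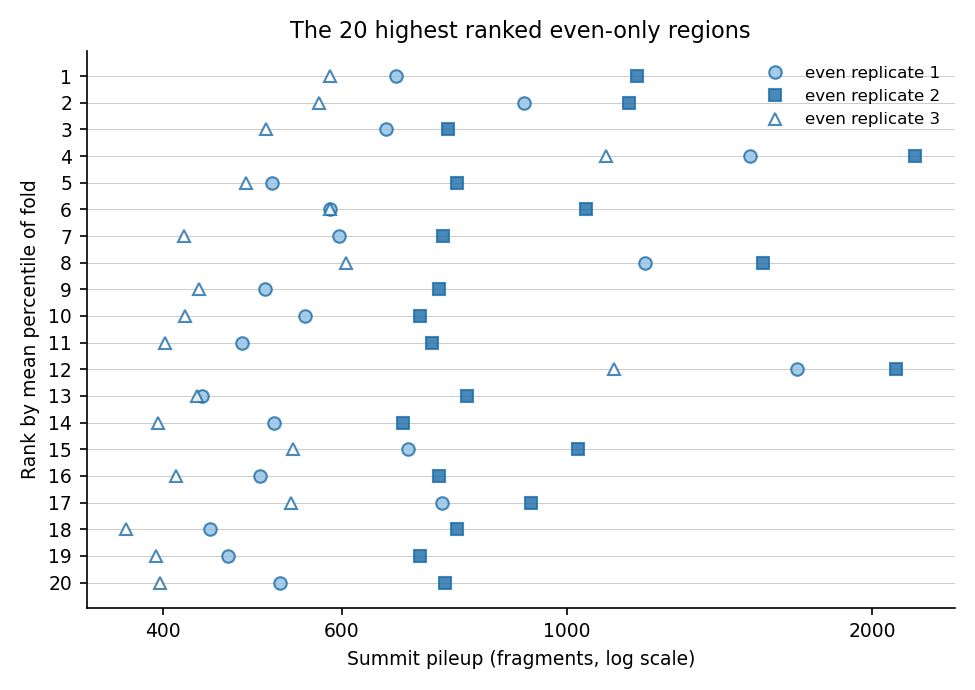
Summit pileup in fragments, on a log axis, of the 20 highest ranked even-only regions in the 3 even libraries, by rank. Replicate 2 has the highest pileup in all 20 rows, and the regions ranked 4, 8 and 12 reach the highest values in that library, 2205, 1562 and 2112 fragments.

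The even peak with the highest fold was not even-only. At chr8:102086950-102088916 the even pileup was 2221, 2955 and 1626 fragments and the fold 472, 822 and 467, which ranked first in each even list by fold but not by pileup, whose maximum was 3527, 4880 and 2825 fragments in the 3 lists. In lacZ replicates 2 and 3 the region had peaks with 50 and 12 fragments, and in lacZ replicate 1 it had none. Every even library thus stood far above every lacZ library there, and the even and lacZ summits lay 373 bases apart.

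Among the 1900 regions with 3 even and 1 or 2 lacZ lists, the next 4 by even fold had the same pattern of a strong even and a weak lacZ peak. Choosing them by even fold, in a class that lacks a lacZ list by rule, favours this pattern. At chr2:20184616-20185662 the even pileup was 1308, 1999 and 1421 fragments, against 31 in lacZ replicate 2, with summits 7 bases apart. At chr6:15812879-15814271 it was 522, 668 and 417, against 30 and 13 in lacZ replicates 2 and 3, with summits 627 bases apart. The other 2, chr8:68198584-68199503 and chr2:98402946-98403955, had 11 and 9 fragments in lacZ replicate 2 and no peak in the other lacZ lists. Over all 1900, the median percentile of fold was 69.4 in the even lists and 35.1 in the lacZ lists that had a peak. The class rule favours this gap too. Even-only regions had a median of 63.6 in the even lists. Regions with 2 or 1 lacZ lists and no even list had 43.1 and 25.7 in the lacZ lists.

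Regions found by lacZ probes alone were ranked in the same way, by the percentile of fold in their own lists. The first regions of either set lie near the top of their lists by construction, so their percentiles do not compare the sets in strength. The highest ranked, chr14:70870301-70871225, had a pileup of 381, 991 and 205 fragments in lacZ replicates 1, 2 and 3 and no even peak within 6395 bases. The second, chr10:129069215-129070163, had 381, 903 and 224 fragments and lay 222 bases from an even-only region. The next 3 were chr6:38007222-38008146, chr14:39295481-39296441 and chr7:84433864-84434814, with 342 to 387 fragments in lacZ replicate 1. Pileup was highest in replicate 2 and lowest in replicate 3 in all 5. The rough guide to depth instead put lacZ replicate 1, at 3.96 fragments per kb, above replicate 2, at 3.64.

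In the 823 regions with a peak in all 6 lists, a number that rests on merging at 1 shared base, the summits of the sets seldom met. Their median length was 975 bases, but a region merged over 6 lists is longer by construction than one merged over 3. The even peaks inside them had a median of 535, 505 and 554 bases in replicates 1, 2 and 3, against 504, 471 and 530 bases in even-only regions. Within a set the summits lay close, with a median spread of 43 bases over the 3 even lists and 46 bases over the 3 lacZ lists. Between the sets the median distance was 302 bases, and 139 regions (16.9%) had summits within 100 bases. In 186 regions they lay more than 500 bases apart.

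Within these merged regions, strength in one set told little of strength in the other. Only 139 of them had even and lacZ summits within 100 bases, so most pairs of values come from summits that lie apart. Regions with close summits were not looked at separately. Across the 823 regions the mean percentile of fold in the even lists and in the lacZ lists gave Pearson's r = -0.01 and Spearman's rho = -0.03, as a description across sites, which are not replicates. Among the even lists rho was 0.85 for each pair to 2 decimals, and among the lacZ lists it was 0.87 to 0.90. Both sets were above the 90th percentile in 23 regions. The even lists were above it and the lacZ lists below the 50th in 25, and the reverse held in 40.

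The highest ranked region in all 6 lists was chr20:13251821-13252760, with 254, 263 and 250 fragments in the even and 212, 502 and 94 in the lacZ lists. The even and lacZ summits lay 31 bases apart there, and in chr1:145002820-145003706, with 359, 440 and 419 against 282, 618 and 162 fragments, they lay 33 bases apart. These 2 had near-coincident summits. In the other 3, chr1:34815066-34816714, chr12:109056037-109057779 and chr12:130761046-130762408, they lay 643, 750 and 513 bases apart.

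**Figure D4:**
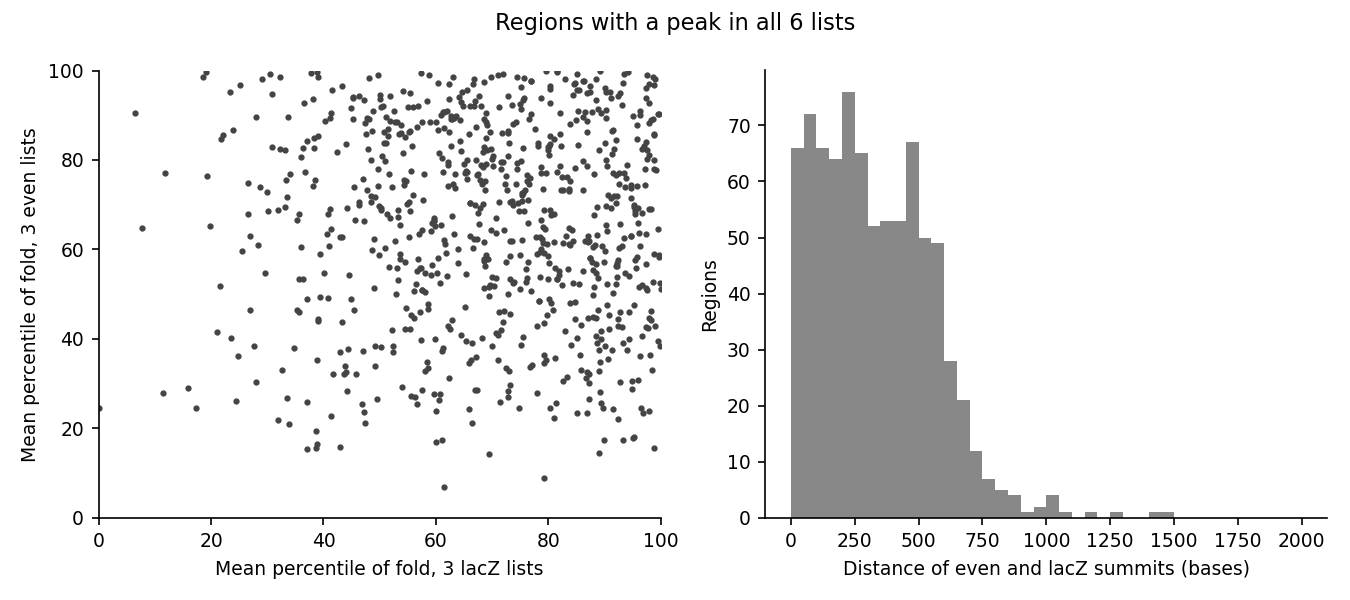
The 823 regions with a peak in all 6 lists. On the left, each point is a region placed by its mean percentile of fold in the 3 lacZ lists (horizontal) and the 3 even lists (vertical). On the right, the histogram counts regions in steps of 50 bases by the distance between the even and lacZ summits, whose median was 302 bases. The points show no trend, with rho = -0.03.

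Even-only regions were spread over all 23 chromosomes at 23.4 per Mb of span, where the span runs from the first to the last peak of a chromosome without stretches over 1 Mb that hold no peak. They were densest on chromosomes 20, 22 and 19, at 30.6, 29.9 and 27.8 per Mb, and sparsest on chromosomes X, 4 and 18, at 13.5, 17.4 and 20.8 per Mb. The lacZ-only regions, at 7.90 per Mb, were also sparsest on chromosomes X and 4, with 4.44 and 6.18 per Mb, and densest on chromosome 20, with 9.90. The ratio of even-only to lacZ-only regions, 2.96 over all, ran from 2.61 on chromosome 12 to 3.69 on chromosome 22. The background that pileup and fold imply moved with these densities. On chromosome X 73.9% to 81.0% of the peaks of a list were at its lowest background, and on chromosome 19 7.03% to 12.7% were, over all 6 lists. The part of this background in the densities was not tested. Jurkat cells have an abnormal chromosome set, and copy number was not measured here.

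The share of a list's peaks that fell on each chromosome differed little between the sets. By limma with Benjamini-Hochberg adjustment over 23 chromosomes, 4 (17.4%) had a higher share in even lists and 3 (13.0%) a lower one. Chromosome 1 held 8.66% ± 0.0552 of even and 8.22% ± 0.102 of lacZ peaks (SD, n = 3), a log2 difference of 0.08 (SE 0.01, adjusted p = 0.00195). Chromosome 22 had the largest rise, 1.52% ± 0.102 against 1.33% ± 0.0776, a log2 difference of 0.19 (SE 0.06, adjusted p = 0.0289). Chromosomes 9 and 11 rose by 0.09 each. Chromosome 13 had the largest fall, from 3.73% ± 0.0793 of lacZ to 3.35% ± 0.0650 of even peaks, a log2 difference of -0.16 (SE 0.03, adjusted p = 0.00333), and chromosomes 12 and 6 fell by 0.12 and 0.10. In each of the 7 the 3 even and the 3 lacZ libraries did not overlap, but the 7 were called on these same values. The libraries did not overlap on chromosomes 2, 3 and 7 either, which were not called. Chromosomes 1, 6 and 13 kept the call when any single library was left out. The other 4 lost it in at least 1 such fit, which has 1 library fewer. By limma, chromosome 12 lost its call without even replicate 2 at a log2 difference of -0.12 (adjusted p = 0.0705). Chromosome 11 lost it without even replicate 1 or 2 at differences of 0.09 and 0.08 (adjusted p = 0.0579 and 0.0962). Chromosome 22 lost it without even replicate 1 or 2 or lacZ replicate 2 or 3 at differences from 0.15 to 0.21 (adjusted p from 0.0611 to 0.153). Chromosome 9 lost it in 5 of the 6 such fits, all but that without lacZ replicate 2 at differences from 0.08 to 0.09 (adjusted p from 0.0579 to 0.122). Shares add up to 100% in a list, so the chromosomes are not independent of each other.

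**Figure D5:**
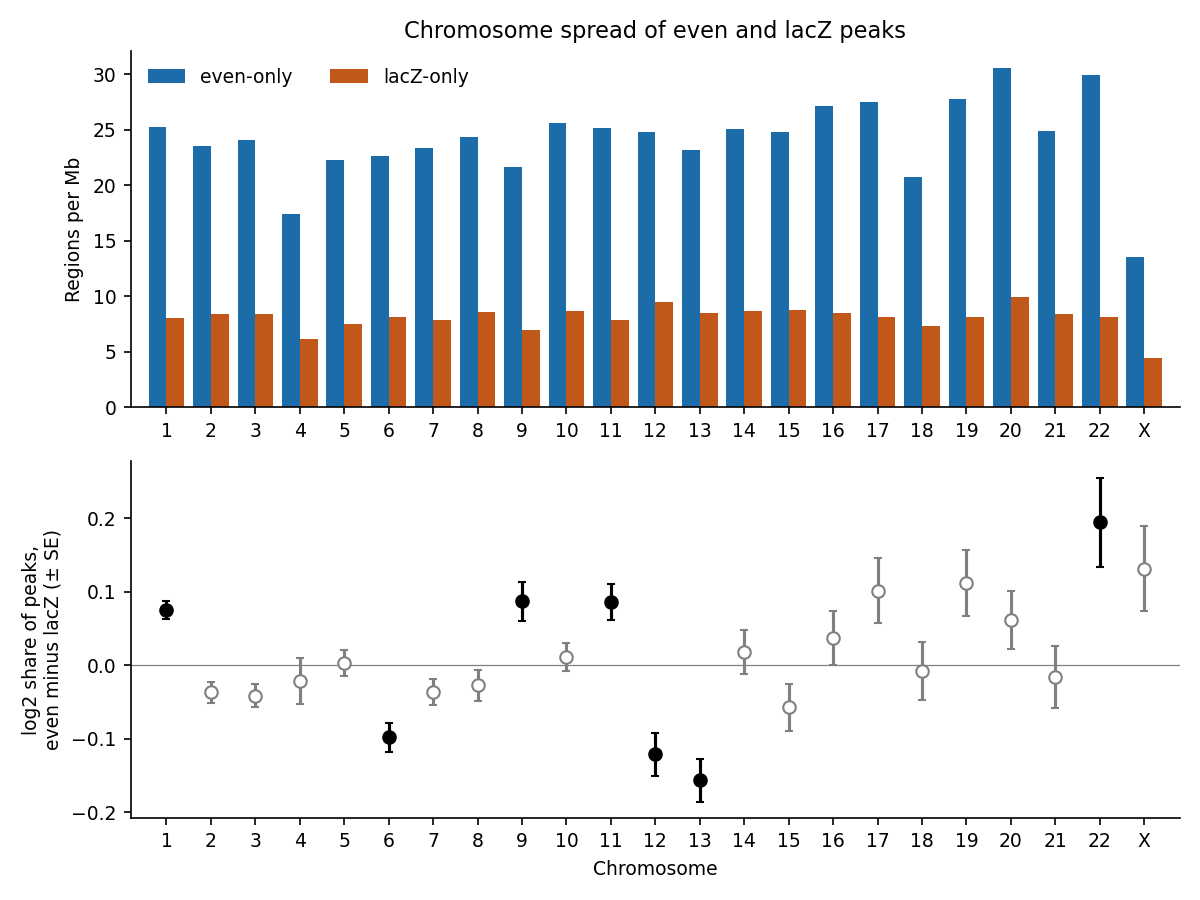
Above, even-only and lacZ-only regions per Mb on each chromosome. Below, the log2 difference between even and lacZ lists in the share of peaks on each chromosome, with its standard error from limma, where filled points are the 7 chromosomes past an adjusted p of 0.05 and open points are the others. Both kinds of region are sparsest on chromosome X, and the differences in share lie between -0.16 and 0.19.

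Shares were also compared at the scale of 1 Mb. Of 2869 windows of 1 Mb with a mean of at least 5 peaks, limma gave 451 (15.7%) with a higher and 474 (16.5%) with a lower share of even peaks at an adjusted p under 0.05. Over all 2869 windows the median difference was -0.02 on the log2 scale after a pseudocount of 0.5. Among the called windows, which were picked for their difference, it was 0.58 and -0.57, and 48 windows exceeded 1 and 24 lay under -1. With a pseudocount of 2 the split was 318 higher and 635 lower. Leaving out even replicate 1, 2 or 3 gave 208, 197 or 242 higher and 253, 246 or 306 lower windows. On chromosome 22, 10 of 36 windows were higher and 1 lower, and on chromosome 13, 9 of 96 were higher and 27 lower.

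The windows with the largest rise held few lacZ peaks. On chromosome 11 from 54000001 to 55000000 there were 15, 19 and 23 even peaks against 1, 2 and 0 lacZ peaks, a log2 difference of 2.88 (SE 0.41, adjusted p = 0.000835). Chromosome X supplied 3 of the 5, with 23, 24 and 34 against 2, 8 and 0 peaks from 58000001 to 59000000. From 17000001 to 18000000 it had 20, 24 and 28 against 1, 13 and 0, and from 63000001 to 64000000 30, 25 and 44 against 4, 14 and 0. On chromosome 9 from 39000001 to 40000000 there were 15, 19 and 23 against 1, 8 and 0 peaks. In all 5 lacZ replicate 3 had no peak, so the size of these differences depends on the pseudocount. With a pseudocount of 2 they ran from 1.33 to 1.77. The windows on chromosome 11 and from 58000001 of chromosome X overlapped a stretch of over 1 Mb in which none of the 6 lists had a peak. Of 230 windows within 5 Mb of such a stretch, 49 (21.3%) were higher and 34 (14.8%) lower.

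In the 5 windows with the largest falls all 6 lists had peaks. On chromosome 10 from 51000001 to 52000000 there were 8, 10 and 10 even against 15, 31 and 8 lacZ peaks, a log2 difference of -1.79 (SE 0.21, adjusted p = 0.000424). Since the even lists are longer, like numbers of peaks mean a lower share. On chromosome 13 from 112000001 to 113000000 there were 42, 35 and 42 against 50, 56 and 34 peaks, a difference of -1.28. The other 3 windows, on chromosome 6 from 166000001, chromosome 8 from 4000001 and chromosome 5 from 140000001, had differences of -1.38, -1.32 and -1.28. With a pseudocount of 2 the 5 falls ran from -1.73 to -1.27, so that the fall on chromosome 10 was then exceeded in size only by the rise on chromosome 11 among the 10 windows named.

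Within chromosomes the median gap between neighbouring even-only regions was 27608 bases, and 4.58% of gaps were within 2000 bases. For the sparser lacZ-only regions the median gap was 84588 bases and the share 1.58%. Gaps shorten as density rises, and the spacing was not tested against regions placed at random. A window of 1 Mb held a median of 23 even-only and 8 lacZ-only regions. The fullest windows, named after their values were seen, were chromosome 8 from 10000001 to 11000000 with 49 even-only and 14 lacZ-only regions, chromosome 19 from 28000001 to 29000000 with 46 and 4, and chromosome 20 from 24000001 to 25000000 with 46 and 12. The 3 longest even-only regions, also named after their values were seen, were all on chromosome 2. The longest, chr2:87650285-87658524, measured 8240 bases and was 1 peak in even replicate 1 and 2 peaks in each of replicates 2 and 3, with a pileup of 187, 194 and 87 fragments. The others, chr2:87632692-87638750 and chr2:90480309-90485894, measured 6059 and 5586 bases, and the last had a single peak of 5582, 5524 and 5544 bases in the 3 even lists. Their mean percentiles of fold were 71.7, 78.8 and 65.3, far below those of the compact regions ranked highest.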

How the data were processed

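The submitters' processing notes name FastQC, Bowtie2 and build hg19 for the Jurkat ChIRP-seq libraries. The peak caller, settings, control and versions: not given in the sources used here. Peak names in a list are those of its sample only, so peaks were called sample by sample. The deposited pileup is a signal, whole fragment counts at the summit that were not scaled to depth. Fold enrichment is a deposited ratio of pileup to a background that the sources used here do not define, and the deposited −log10 columns hold p-values and q-values; every peak had a q-value under 0.05. Positions count from 1. The background was computed on the assumption that fold is (pileup + 1)/(background + 1).

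Groups and replicate numbers came from the sample titles. Peaks sharing at least 1 base were merged over the 6 lists. List measures were compared on the log2 scale by exact permutation tests over 20 choices. Shares per chromosome and per 1-Mb window (by summit, log2 with pseudocount 0.5) were tested with limma 3.58.1 in R 4.3.3 with a trend, checked on simulated data. Named were the 20 even-only regions, 5 of each other class, 3 chromosomes at either end of density and 5 windows per direction with the largest values. Members, lists and rules were chosen with earlier results of these data known. Even and lacZ libraries of the same number did not deviate together over windows, so no pairing was used. The gene table at hand follows GRCh38, so regions are named by position only. Chromosome Y was not used. Alternatives were other peak cutoffs, merging, presence and filters, a replicate block and leaving out libraries.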

Additional observations from a re-analysis of the deposited data

Results flagged for a closer look

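Unplaced and unlocalized sequences of hg19 stayed out of the comparison. On 6 of 58 with a peak in any of the 6 lists, the mitochondrial genome included, each even list held 5 or more peaks and exceeded all lacZ lists, as a number and as a rate per 10000 peaks. On chr9_gl000199_random the even lists held 38, 46 and 37 peaks, a mean of 40.3 ± 4.93 (SD, n = 3), against 0, 0 and 7 in the lacZ lists. On chr1_gl000192_random they held 32, 32 and 37, a mean of 33.7 ± 2.89, against 7, 22 and 2. On chr19_gl000209_random there were 7, 9 and 15, a mean of 10.3 ± 4.16, against 0, 4 and 0. Means on chrUn_gl000217, chrUn_gl000222 and chrUn_gl000216 were 7.33, 6.33 and 5 even peaks, where the fullest lacZ list had 3, 5 and 2. The reverse was counted by number alone, not by rate, although the lacZ lists were shorter in most pairs. By number every lacZ list exceeded every even list on 2 sequences. On chrUn_gl000219 there were 3, 5 and 6 even against 7, 10 and 7 lacZ peaks. On chrUn_gl000241 there were 1, 2 and 2 against 3, 3 and 3. By number the sets overlapped on chrUn_gl000220, with 10, 6 and 13 even against 22, 16 and 7 lacZ peaks. The counts of 6 and 2 thus rest on unlike rules and cannot be set against each other. No cause was tested for these values.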

How the results depend on the processing

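The log2 differences in peak number and covered bases kept their direction under all alternatives, from 0.65 to 1.54 and from 0.65 to 1.47 when each library was left out, but tests of this size could not pass 0.05. With a replicate block the exact p was 0.5, 0.25, 0.75 and 0.5 for peak number (log2 difference 1.08), covered bases (1.06), median length (-0.07) and median pileup (0.18), where 0.25 is the smallest p possible. In limma the block gave 439 higher and 472 lower windows and 10 chromosomes. The correlation of deviations over windows was 0.05, -0.01 and 0.03 for the same numbers. Median length turned to 0.0071 in the upper 50% by fold, and median pileup to -0.25 over background.

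The 66526 even-only, 22509 lacZ-only and 823 all-list regions became 36646, 12566 and 253 in the upper 50% by fold. At equal length there were 19244 even-only and 197 all-list regions. The all-list count was 1450 with merging over 500 bases and 136 where a list had to cover 50% of the region. Where 2 of 3 lists sufficed, 43103 regions were lacZ-only and 1958 had both sets. Leaving out each library gave 66544 to 78683 even-only, 22580 to 41277 lacZ-only and 766 to 1434 all-list regions, the highest of the last 2 counts without lacZ replicate 3. Called chromosomes were 12 in the upper 50% by fold and 3 to 8 when a library was left out, with 4 and 3 without even replicates 1 and 2. Leaving out each library gave 197 to 543 higher and 246 to 590 lower windows. Counts fall or rise by construction when fewer peaks or lists enter. For the rest the cause was not tested. Depth is unknown, which limits what an absent peak shows.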
